A study of Mus musculus and Homo sapiens with 21 samples.

Results

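Cancer-testis antigen genes were examined in MDA231BrM2 cells with and without a CRISPR knockout of *IL13RA2*. The set held every protein-coding gene of the human table whose symbol began with MAGEA, MAGEB, MAGEC, GAGE, PAGE, XAGE, SPANX, SSX (other than SSX2IP), CT45A, CT47A or CSAG, together with *TGIF2LX*. This gave 93 genes of 58735 in the table, 19951 of which were protein-coding, and all 93 lay on the X chromosome. Its families were chosen by the measured FPKM of their leading genes in the same CTL and ΔIL13RA2 libraries, so the values in those libraries are given as a description, with no p-value and with intervals that cover counting error only. The numbers of members past the limma threshold, with groups that do not overlap, or with a log2 difference of at least 1 are given next to those of all genes. They support nothing.

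Cancer-testis antigens are proteins made by germ cells of the testis and kept off in most adult somatic tissues. Many of their genes sit on the X chromosome in clusters of recent, near-identical copies, and methylation of promoter DNA is one of the layers that keeps them silent. Tumors, among them triple negative breast cancers (TNBC), often express some of them, which has made the proteins targets for vaccines and engineered T cells.

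MDA231BrM2 was derived from MDA-MB-231, a human TNBC line, by its homing to brain, and carries GFP and luciferase. MDA231BrM2-CTL received a scramble CRISPR control, and MDA231BrM2-ΔIL13RA2 received CRISPR plasmids with guides against *IL13RA2*, a receptor for the cytokine IL13. The ΔIL13RA2 cells were a sorted IL13RA2-negative population made with pooled guides and were not a single clone. Both were untreated and were plated at 100000 cells per well for 48 h in medium with 2% FBS, with 3 RNA-Seq libraries for each. No source states that the 3 libraries came from separate cultures, so the p-values below measure the spread between these libraries, which may be technical. Each line was a single derived population, and only ΔIL13RA2 is described as sorted for IL13RA2-negative cells. Loss of IL13RA2 therefore cannot be told apart from other differences between the populations, such as those left by sorting or drift.

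Expression is given as FPKM, a read count corrected for gene length and library depth, so that genes of different length can be set side by side. Libraries held 14744736 to 16473075 reads on genes in CTL and 14759315 to 19945215 in ΔIL13RA2. *IL13RA2* itself, the targeted gene, was at 15.1, 15.2 and 18.5 FPKM in CTL and at 11.4, 13.7 and 11.4 FPKM in ΔIL13RA2. Its RNA was lower in every ΔIL13RA2 library (log2 difference −0.39, SE 0.10, limma adjusted p = 0.0246), and the adjusted p was 0.0716 without ΔIL13RA2 replicate 1, 0.0778 without ΔIL13RA2 replicate 3, 0.0581 on TPM and 0.0900 with no minimum FPKM. The epithelial keratin *KRT18* averaged 125 FPKM in CTL and *VIM*, which encodes vimentin, averaged 490 FPKM, while the estrogen receptor gene *ESR1* averaged 0.0392 FPKM. *KRT18* and *VIM* came from a list of 8 markers, of which 7 averaged at least 1 FPKM over all libraries. *ESR1*, *PGR* and *ERBB2*, the 3 receptor genes listed for TNBC, summed to 5.94 to 6.88 FPKM in CTL. Of these 3 genes, 1 averaged at least 1 FPKM, so not all were near 0. Of 8 genes that define germ cells, 7 (*DDX4*, *DAZL*, *PRM1*, *PRM2*, *TNP1*, *ACR* and *ZPBP*) were at 0 in all 6 libraries, and the sum of the 8 ran from 0.0356 to 0.128 FPKM in CTL and from 0.0391 to 0.0522 FPKM in ΔIL13RA2. The leukocyte gene *CD3E* was at 0 as well. The mitochondrial share of reads was 3.97% to 4.12% in CTL and 3.39% to 3.76% in ΔIL13RA2, and its part in the differences below was not tested.

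Most cancer-testis genes were not detected in either line. No read fell on 65 of the 93 genes in any library, which at this depth allows 3 reads per library, or 0.0463 to 1.75 FPKM depending on gene length and library. A further 14 had reads but at most 3 in any library, with 1 to 10 reads in all. The remaining 14 had more than 3 reads in at least 1 library, and 8 of them reached a mean of 1 FPKM in a group (*SPANXB1*, *PAGE5*, *XAGE1B*, *SPANXA1*, *MAGEC2*, *TGIF2LX*, *XAGE1A* and *SPANXC*).

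Several families had no or almost no reads. None of the 9 CT45A genes and none of the 12 CT47A genes had a read. The 13 GAGE genes had 1 read in all, on *GAGE10*, and the 8 SSX genes, which encode nuclear repressors known from the SS18-SSX fusions of synovial sarcoma, had 2 reads, both on *SSX1*. Recent copies limit these zeros. Of the 65 genes at 0, 20 shared their annotated length with another copy of their family, among them 10 of the 12 CT47A genes, and how the authors' counting treated reads that match several copies is not given in the sources used here. Equal length is only a rough guide to such copies, as sequences were not compared. Copies of unequal length, such as *MAGEA2* and *MAGEA2B* (2272 and 2422 bases, both at 0), are not counted, so other zeros may be limited too. The 18 genes of the same names with other biotypes, mostly pseudogenes, had 19 reads in all and would not change a family sum by more than 0.280 FPKM in a library.

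*SPANXB1*, *PAGE5* and *XAGE1B*, the 3 leading genes of CTL, held 97.3% of the summed FPKM of all 93 in CTL and 87.0% in ΔIL13RA2. The sum over all 93 genes was 225, 226 and 229 FPKM in the CTL libraries and 108, 98.7 and 106 FPKM in the ΔIL13RA2 libraries. Every ΔIL13RA2 library was below every CTL library, and the means, 227 ± 2.53 (SD, n = 3) and 104 ± 4.86 FPKM (SD, n = 3), stood 2.18-fold apart. In bulk RNA, fewer cells that express a gene and less RNA per cell cannot be told apart. The lower sum came from *SPANXB1* and *XAGE1B*. Without these, the other 91 genes summed to 83.2 ± 1.51 FPKM in CTL and 91.5 ± 4.03 FPKM in ΔIL13RA2 (SD, n = 3), and without *PAGE5* as well, the other 90 summed to 6.20 ± 0.596 and 13.5 ± 1.45 FPKM (SD, n = 3), 2.18-fold higher in ΔIL13RA2. *SPANXB1* and *XAGE1B* and the sum of the weakly expressed remainder stood on opposite sides of CTL. These genes were set apart with their values known, so the direction of the remainder depends on that choice. Within the remainder, some genes such as *SPANXA1* and *TGIF2LX* were higher in ΔIL13RA2, and others such as *MAGEA3* and *MAGEA11* were lower.

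**Figure D1:**
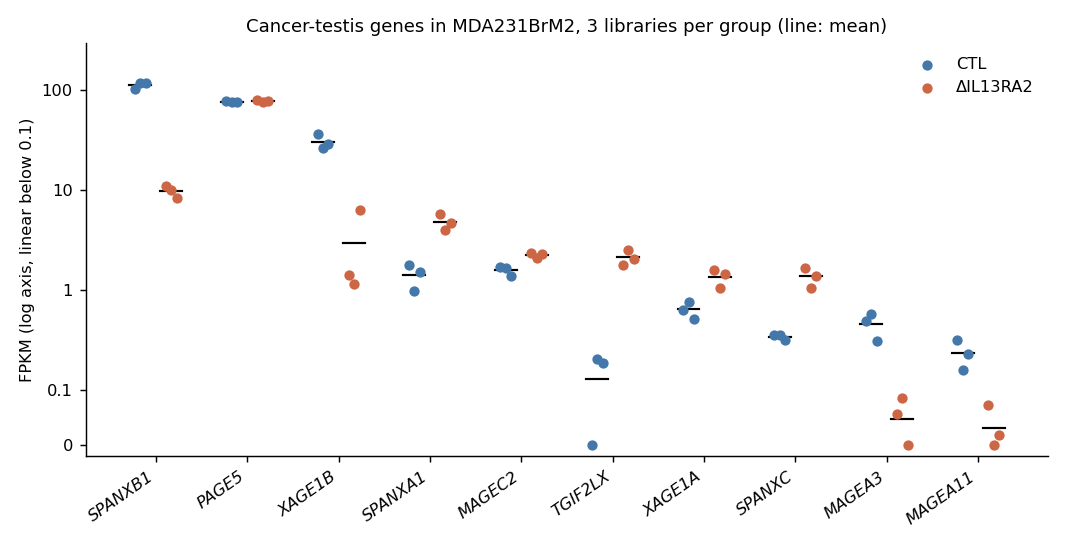
FPKM (vertical axis, logarithmic above 0.1 and linear below) of 10 cancer-testis genes in each of the 3 CTL (blue) and 3 ΔIL13RA2 (orange) libraries, with the group mean as a line. *SPANXB1* and *XAGE1B* sit about an order of magnitude lower in ΔIL13RA2, *PAGE5* lies near 77 FPKM in both groups, and *SPANXA1*, *TGIF2LX* and *SPANXC* sit higher in ΔIL13RA2.

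Of the 93 genes, 6 had a mean over all libraries of at least 1 FPKM and entered the limma fit, and 5 of them passed an adjusted p of 0.05, 3 higher (*SPANXA1*, *MAGEC2* and *TGIF2LX*) and 2 lower (*SPANXB1* and *XAGE1B*) in ΔIL13RA2. Of all 11761 genes tested, 28.7% passed, 12.6% higher and 16.1% lower. With no minimum FPKM 8 of the 28 genes with reads passed, next to 2237 of 29715 over all genes. With a minimum of 5 FPKM 2 of 3 passed, next to 2658 of 7199. On TPM, which rescales each library to one fixed total and moved the median of all genes by 0.06 on the log2 scale, 7 of 9 passed, next to 3762 of 15678. Among the 14 genes with more than 3 reads in a library, the ΔIL13RA2 values were all above CTL for 5, all below for 5 and overlapped CTL for 4. The groups did not overlap for 35.1% of the 19872 genes with that many reads, above for 16.9% and below for 18.2%. A log2 difference of at least 1 was seen for 71 of the 11761 tested genes (0.604%), of which 4 were members (*SPANXB1*, *XAGE1B*, *TGIF2LX* and *SPANXA1*). The families were chosen by these same values, so this count supports nothing. *TGIF2LX* met the minimum for the fit only through ΔIL13RA2, with means of 0.129 FPKM in CTL and 2.13 FPKM in ΔIL13RA2.

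The SPANX genes encode small proteins of the spermatid nucleus. *SPANXB1* (ENSG00000227234, chrX:141002591-141003706, plus strand, coordinates of the authors' table, whose processing notes name hg38) had 103, 117 and 119 FPKM in CTL and 11.0, 9.93 and 8.24 FPKM in ΔIL13RA2, from 715, 806 and 908 reads against 103, 92 and 58 reads. The groups were far apart, and the libraries within each lay close together. The mean was 11.6-fold lower in ΔIL13RA2 (10.8-fold to 12.4-fold when any library was left out), and the ratio of pooled reads per depth was 11.5 (95% exact interval 10.1 to 13.1, for counting error only). Among 19951 protein-coding genes, *SPANXB1* ranked 302 by mean FPKM in CTL and 4606 in ΔIL13RA2.

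*SPANXA1* and *SPANXC* were higher in ΔIL13RA2. *SPANXA1* (ENSG00000198021, chrX:141583674-141585011, minus strand) had 1.77, 0.985 and 1.51 FPKM in CTL and 5.71, 3.96 and 4.63 FPKM in ΔIL13RA2. All 3 ΔIL13RA2 libraries were above CTL, and the pooled reads, 45 against 181, differed 3.36-fold per depth (95% exact interval 2.41 to 4.77). *SPANXC* (ENSG00000198573) had 2 reads in each CTL library and 13, 8 and 8 reads in ΔIL13RA2, a mean of 0.340 against 1.37 FPKM. The pooled ratio for *SPANXC* was 4.04 (95% exact interval 1.65 to 11.9).

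*SPANXA2* and *SPANXD* were picked out after their values were seen. *SPANXA2* shares its annotated length of 691 bases with *SPANXA1*, starts 5.76 kb from it on the other strand and had overlapping groups, with 0.883, 0.788 and 0.355 FPKM in CTL and 1.08, 0.440 and 1.06 FPKM in ΔIL13RA2. *SPANXD* had 3 reads in each CTL library and 1, 0 and 0 in ΔIL13RA2, lower as for *SPANXB1*, with a pooled ratio of CTL to ΔIL13RA2 of 10.8 (95% exact interval 1.49 to 472). Reads of *SPANXA1* and *SPANXA2* may be split between these copies, so their sum is safer than either value.

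The family sum was dominated by *SPANXB1* in CTL. The SPANX sum was 107, 120 and 121 FPKM in CTL and 19.5, 15.4 and 15.3 FPKM in ΔIL13RA2, 6.92-fold lower on the means. Leaving out *SPANXB1*, the other 9 copies summed to 2.76 ± 0.466 FPKM in CTL and 7.02 ± 1.55 FPKM in ΔIL13RA2 (SD, n = 3), 2.54-fold higher. *SPANXB1* took 95.7% to 97.2% of the family's reads in the CTL libraries. In ΔIL13RA2 it took 48.8% (95% Wilson interval 42.2% to 55.5%), 57.5% (49.8% to 64.9%) and 46.4% (37.9% to 55.1%).

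The XAGE genes belong, with GAGE and PAGE, to a superfamily of short acidic antigens. *XAGE1B* (ENSG00000204382, chrX:52512077-52520803, minus strand) had 36.4, 26.2 and 28.8 FPKM in CTL and 1.41, 1.15 and 6.27 FPKM in ΔIL13RA2. All ΔIL13RA2 libraries were below CTL, but replicate 3, with 133 reads where replicates 1 and 2 had 40 and 32, stood apart from the others. The counting intervals do not meet, at 5.25 to 7.43 FPKM for replicate 3 against 1.01 to 1.92 and 0.784 to 1.62 FPKM. The mean was 10.4-fold lower in ΔIL13RA2 with all libraries and 23.8-fold lower without replicate 3. In ΔIL13RA2, *XAGE1B* ranked 8272 of 19951 protein-coding genes, from 1496 in CTL.

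*XAGE1A* (ENSG00000204379, chrX:52495676-52500812, plus strand) starts 16.4 kb from *XAGE1B* and differed in the other direction. It had 0.633, 0.763 and 0.515 FPKM in CTL and 1.59, 1.04 and 1.43 FPKM in ΔIL13RA2, with every ΔIL13RA2 library above CTL and no sign of replicate 3 standing apart. The pooled reads, 31 against 79, differed 2.13-fold per depth (95% exact interval 1.39 to 3.34). *XAGE1B* took 97.8% to 98.7% of the XAGE reads in CTL. It took 52.6% (95% Wilson interval 41.6% to 63.5%), 59.3% (46.0% to 71.3%) and 84.2% (77.7% to 89.0%) in ΔIL13RA2. The XAGE sum was 31.1 ± 5.30 FPKM in CTL and 4.42 ± 3.07 FPKM in ΔIL13RA2 (SD, n = 3), 7.03-fold lower, and 11.6-fold lower without ΔIL13RA2 replicate 3. Reads of *XAGE1A* and *XAGE1B* may be split between these copies, so the XAGE sum is safer than either value or their opposite directions.

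*PAGE5* (ENSG00000158639, chrX:55220355-55224108, plus strand), of the same superfamily, had 78.1, 76.4 and 76.4 FPKM in CTL and 80.9, 75.7 and 77.4 FPKM in ΔIL13RA2. The groups overlapped and the pooled reads, 2615 against 3177, had a ratio per depth of 1.01 (95% exact interval 0.963 to 1.07). It took at least 99.7% of the PAGE reads in every library. It was the second of the 93 genes in CTL and the first in ΔIL13RA2, and it ranked 499 and 475 among protein-coding genes.

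**Figure D2:**
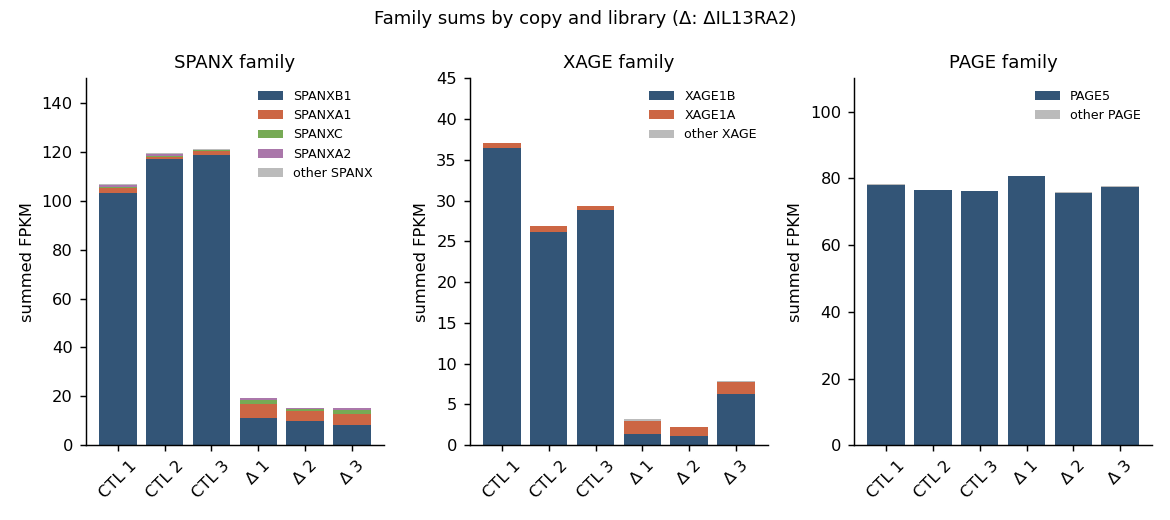
Summed FPKM (vertical axis, from 0) of the SPANX, XAGE and PAGE families in each library, stacked by copy. In the SPANX and XAGE panels the *SPANXB1* and *XAGE1B* blocks shrink in ΔIL13RA2 while the orange *SPANXA1* and *XAGE1A* blocks are larger, and the PAGE bars stay between 75.8 and 80.9 FPKM. Reads may be split between copies of a family, so the bar heights are safer than the blocks.

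The MAGE genes of these families encode proteins that bind RING ubiquitin ligases and direct them to substrates. *MAGEC2* (ENSG00000046774, chrX:142202345-142205290), which binds the corepressor TRIM28, had 1.70, 1.64 and 1.39 FPKM in CTL and 2.36, 2.09 and 2.31 FPKM in ΔIL13RA2. The ΔIL13RA2 libraries were all higher, by 1.43-fold on the means, with a pooled ratio of 1.43 (95% exact interval 1.16 to 1.77). *MAGEC1*, named after its values were seen, had 2, 2 and 14 reads in CTL and 11, 6 and 3 in ΔIL13RA2, so the groups overlapped and most of its CTL reads came from replicate 3.

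The MAGEA genes were near the limit of detection. *MAGEA11* (ENSG00000185247), a coregulator of the androgen receptor, had 16, 8 and 13 reads in CTL and 5, 0 and 1 in ΔIL13RA2. *MAGEA3*, named after its values were seen, had 13, 15 and 9 reads in CTL and 2, 3 and 0 in ΔIL13RA2. For both, every ΔIL13RA2 library was below CTL, with pooled ratios of CTL to ΔIL13RA2 of 7.38 (95% exact interval 3.09 to 21.4) for *MAGEA11* and 8.86 (3.47 to 28.9) for *MAGEA3*. On so few reads single libraries mattered, as the ratio of means was 7.67 for *MAGEA11* and 24.3 without ΔIL13RA2 replicate 1, and 9.75 for *MAGEA3* and 16.4 without ΔIL13RA2 replicate 2.

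The rest of the MAGEA family did not share one direction. *MAGEA12*, picked out in the same way, had 0, 1 and 0 reads in CTL and 1, 7 and 3 in ΔIL13RA2, with overlapping groups. *MAGEA6* had 2, 1 and 2 reads in CTL and none in ΔIL13RA2. The MAGEA sum was 0.769 ± 0.145 FPKM in CTL and 0.181 ± 0.0764 FPKM in ΔIL13RA2 (SD, n = 3). *MAGEB2* had 2, 4 and 3 reads in CTL and none in ΔIL13RA2, and *CSAG1* had 0, 1 and 1 reads in CTL and 2, 3 and 2 in ΔIL13RA2, all at or near the limit of 3 reads.

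*TGIF2LX* (ENSG00000153779, chrX:89921882-89922883, plus strand) encodes a testis homeodomain protein and is a retrocopy of *TGIF2*. It had 0, 3 and 3 reads in CTL and 36, 50 and 31 reads in ΔIL13RA2, or 0, 0.204 and 0.184 FPKM against 1.79, 2.53 and 2.06 FPKM. CTL was at the limit of detection, all ΔIL13RA2 libraries were well above it, and the pooled ratio was 16.3 (95% exact interval 7.26 to 45.3). The autosomal *TGIF2* was also higher in ΔIL13RA2, with 11.1, 11.7 and 10.3 FPKM in CTL and 13.2, 13.5 and 13.1 FPKM in ΔIL13RA2 (log2 difference 0.25, SE 0.05, limma adjusted p = 0.0109). *TGIF1* had a log2 difference of −0.17 (SE 0.07, limma adjusted p = 0.0913).

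The order of levels within ΔIL13RA2 was less settled than within CTL. In CTL, *SPANXB1*, *PAGE5* and *XAGE1B* followed each other with no overlap between libraries, and *MAGEC2* and *SPANXA1* overlapped. In ΔIL13RA2, *PAGE5* was followed by *SPANXB1* without overlap. *XAGE1B*, at 1.15 to 6.27 FPKM, then overlapped *SPANXA1*, *MAGEC2*, *TGIF2LX*, *SPANXC* and *XAGE1A*.

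Pooled over all members, nearby genes passed the test in both directions. Within 1 Mb of the members with a mean of 1 FPKM in a group, no tested gene was higher. Lower were 1 of 1 tested around *SPANXB1*, 2 of 6 around *XAGE1B* and 1 of 8 around *PAGE5*. *MAGEC2* and *TGIF2LX* had no tested neighbor. Around the weaker *MAGEA11* and *MAGEA3*, 2 of 6 and 1 of 5 were higher and none was lower. *SPANXB1*, *SPANXC* and *SPANXA1* lie within 581 kb, and the only tested gene outside the set within 1 Mb of *SPANXB1* was *LDOC1*, 173 kb from it and named after its values were seen, at 29.6, 28.5 and 28.8 FPKM in CTL and 26.4, 23.1 and 23.5 FPKM in ΔIL13RA2 (log2 difference −0.24, limma adjusted p = 0.0134). On one side of *XAGE1B*, *MAGED1* at 709 kb and *GSPT2*, a translation termination factor gene at 769 kb, were lower in ΔIL13RA2. *GSPT2* had 2.56, 3.18 and 3.06 FPKM in CTL and 1.23, 0.849 and 0.595 FPKM in ΔIL13RA2 (log2 difference −1.07, SE 0.13, limma adjusted p = 0.000906). On the other side, the tested genes *TSPYL2*, *KDM5C*, *SMC1A* and *HSD17B10* had log2 differences of −0.07 to 0.07.

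Around *PAGE5*, whose own groups overlapped, 1 of 8 tested genes passed, *MAGED2*. The forkhead gene *FOXR2*, 403 kb from *PAGE5* and named after its values were seen, was below the minimum for the test and had 20, 24 and 20 reads in CTL and none in any ΔIL13RA2 library. Over all 93 members, 65 of which had no read, 229 protein-coding genes outside the set lay within 1 Mb. Of the 105 tested, 15 were higher and 11 lower, 24.8%, next to 22.9% of the 398 tested X-linked genes outside the set and 28.7% of all genes. The count of 26 was 17 without CTL replicate 1 and 16 without ΔIL13RA2 replicate 2. *INTS6L*, 193 kb from *CT45A1*, was lower (log2 difference −0.53, limma adjusted p = 0.00204), and the chromatin protein gene *HMGB3*, 932 kb from *MAGEA4*, was higher (log2 difference 0.41, limma adjusted p = 0.000484). No read fell on *CT45A1* or *MAGEA4* in any library. *SPANXB1* starts 26.0 Mb from *IL13RA2*, which is also X-linked.

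**Figure D3:**
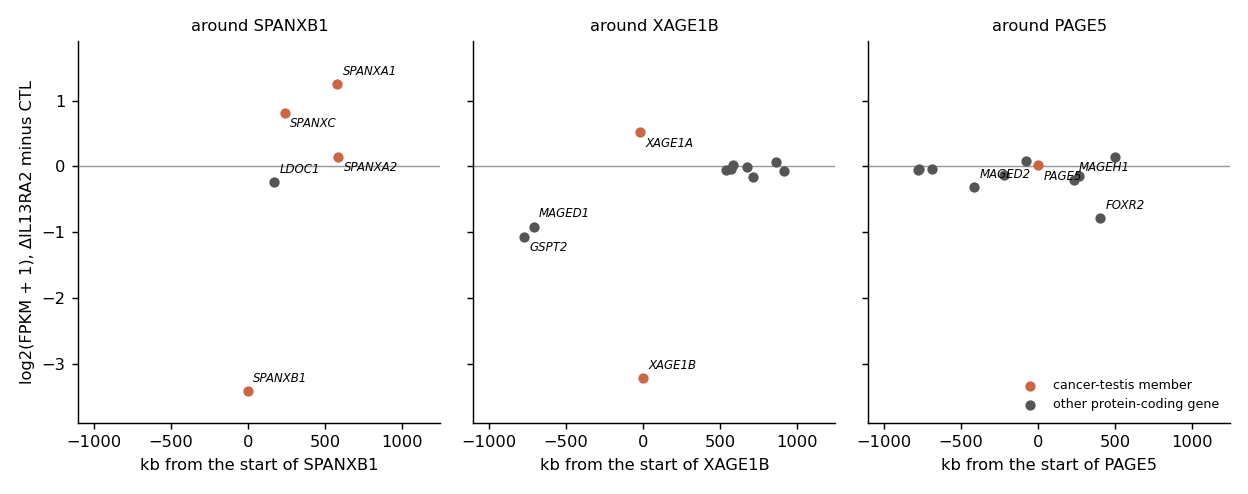
Difference in log2(FPKM + 1), ΔIL13RA2 minus CTL (vertical axis), of protein-coding genes with a mean of at least 0.3 FPKM within 1 Mb of *SPANXB1*, *XAGE1B* and *PAGE5*, against the distance between gene starts in kb (orange, members of the set; grey, other protein-coding genes). *SPANXB1* and *XAGE1B* are the lowest points, the nearby members *SPANXC*, *SPANXA1* and *XAGE1A* lie above 0, and *MAGED1* and *GSPT2* lie below 0 at 709 and 769 kb from *XAGE1B*. Reads may be split between copies of a family, which limits the points of single members.

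Cancer-testis genes outside these families were compared next. A list of 126 held 32 X-linked and 94 autosomal genes. Reads were absent from 60 of them, *CTAG1B* and *CTAG2* (the NY-ESO-1 and LAGE-1 genes), *PRAME* and *CTCFL*, the germline relative of CTCF, among these. Of 18 tested, 1 was higher and 4 lower in ΔIL13RA2, 27.8% next to 28.7% of all genes, with a median log2 difference of 0.05 next to 0.01. The 4 lower genes include the targeted *IL13RA2*. Without 6 genes of mitosis that are also on such lists (*PBK*, *TTK*, *KIF2C*, *OIP5*, *NUF2* and *CEP55*, a choice made after seeing the data), the same 5 calls were among 12 tested, 41.7%, and the median turned to −0.08. The count of 5 was 3 without CTL replicate 2, ΔIL13RA2 replicate 1 or ΔIL13RA2 replicate 2.

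*CT83*, an X-linked antigen known from lung and breast tumors, was the only tested X-linked gene of the list other than *IL13RA2*. It had 17.3, 18.0 and 17.1 FPKM in CTL and 10.2, 10.2 and 14.4 FPKM in ΔIL13RA2 (log2 difference −0.57, SE 0.13, limma adjusted p = 0.0171). As for *XAGE1B*, ΔIL13RA2 replicate 3 was the closest to CTL. Its adjusted p rose to 0.0619 at most, and the call was lost with no minimum FPKM and without CTL replicate 1, CTL replicate 2 or ΔIL13RA2 replicate 2. Among autosomal genes, *GPAT2*, an acyltransferase gene expressed in spermatocytes, was lower (log2 difference −0.30, limma adjusted p = 0.00886) and *SPAG1*, needed for the assembly of dynein arms, was higher (0.34, limma adjusted p = 0.00339). *IGF2BP3*, an oncofetal RNA-binding protein gene, was lower (log2 difference −0.25, limma adjusted p = 0.0255), with an adjusted p of up to 0.0961 over the alternatives. Its call was lost on TPM, with no minimum FPKM, and without CTL replicate 2 or 3 or ΔIL13RA2 replicate 1 or 2.

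Members of the MAGE family that are expressed in many somatic tissues were lower where they passed. Of 12 listed, 6 were tested, 3 were lower and none was higher, with a median log2 difference of −0.24, next to 16.1% lower and 12.6% higher and a median of 0.01 over all genes tested. *MAGED1*, which binds the neurotrophin receptor p75, had 6.87, 7.76 and 7.54 FPKM in CTL and 3.51, 3.27 and 3.56 FPKM in ΔIL13RA2, with no overlap (log2 difference −0.92, SE 0.06, limma adjusted p = 6.97e-05). *MAGED2* averaged 60.1 ± 2.16 and 48.2 ± 0.686 FPKM (SD, n = 3, limma adjusted p = 0.000829), and *MAGEF1* averaged 30.4 ± 1.19 and 24.9 ± 2.03 FPKM (SD, n = 3, limma adjusted p = 0.0122). *MAGEE1*, *MAGEH1* and *NSMCE3* did not pass.

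Genes of DNA methylation, one of the layers that silence the set, passed in both directions. Of 24 tested, 4 were higher and 3 lower, 29.2% next to 28.7% of all genes. The maintenance methyltransferase gene *DNMT1* averaged 76.0 ± 2.07 FPKM in CTL and 77.5 ± 2.80 FPKM in ΔIL13RA2 (SD, n = 3, limma adjusted p = 0.638). The de novo methyltransferase genes *DNMT3A* and *DNMT3B* had log2 differences of 0.04 and 0.13 (limma adjusted p = 0.675 and 0.0671), and the demethylase gene *TET1*, at 0.257 to 0.365 FPKM in CTL and 0.352 to 0.398 FPKM in ΔIL13RA2, was below the minimum for the test.

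The lower genes were *APOBEC3B*, a cytidine deaminase (log2 difference −0.44, limma adjusted p = 0.000339), *CDCA7*, which recruits the remodeler HELLS to DNA (−0.36, limma adjusted p = 0.00344), and its paralog *CDCA7L* (−0.30, limma adjusted p = 0.00113). *APOBEC3B* was counted because the list held it, and its part in DNA methylation was not tested. Among the higher genes, log2 differences were 0.22 for *MBD4*, 0.16 for *UHRF1* and 0.16 for *TDG* (limma adjusted p = 0.0142, 0.0306 and 0.0266). *TDG* lost its call when any library was left out (adjusted p of up to 0.0802), *UHRF1* when any but CTL replicate 3 was (up to 0.0963), and *MBD4* without ΔIL13RA2 replicate 2 (0.0593). The count of 7 was 3 or 4 when any library but CTL replicate 3 was left out, and the 3 lower genes passed each time.

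Repressors that act on germline genes in somatic cells were all expressed. Of 38 tested, 6 were higher and none was lower, 15.8% next to 28.7% of all genes and 12.6% higher, with a median log2 difference of 0.08. The log2 difference was above 0 for 31 of the 38, 81.6% next to 51.1% of all genes. The count depended on the scale, as on TPM 13 of 38 were higher and none was lower. Over all 15678 genes tested on TPM, 2394 were higher and 1368 lower. *TFDP1*, the partner of E2F factors, had 59.5, 59.4 and 60.5 FPKM in CTL and 94.8, 88.0 and 88.2 FPKM in ΔIL13RA2 (log2 difference 0.59, SE 0.04, limma adjusted p = 6.97e-05). The histone H3K9 methyltransferase genes *SUV39H2* and *EHMT2* and the HUSH effector gene *MORC2* had log2 differences of 0.27, 0.18 and 0.17 (limma adjusted p = 0.0290, 0.0122 and 0.0447). *MORC2* lost its call when any library was left out (adjusted p of up to 0.115), *SUV39H2* when any but CTL replicate 3 was (up to 0.0993), and *EHMT2* without ΔIL13RA2 replicate 2 (0.0530). The count of 6 was 2 without CTL replicate 1, 3 without CTL replicate 2, 3 without ΔIL13RA2 replicate 1 and 1 without ΔIL13RA2 replicate 2.

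**Figure D4:**
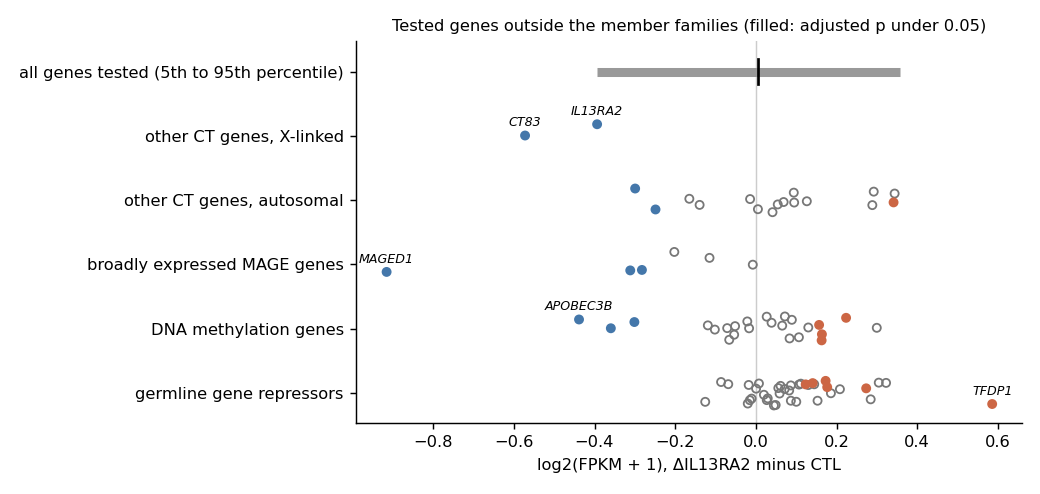
Difference in log2(FPKM + 1), ΔIL13RA2 minus CTL (horizontal axis), of each tested gene of 5 lists outside the set (filled points passed an adjusted p of 0.05, orange higher and blue lower) below the 5th to 95th percentile of all 11761 tested genes (grey bar, −0.39 to 0.36, with the median as a line). *MAGED1*, *CT83* and *APOBEC3B* lie below that range and *TFDP1* above it.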

How the data were processed

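RNA was sequenced from 6 MDA231BrM2 libraries of the 21 in the series, and the murine tables were not analysed here. The authors deposited FPKM per gene, with gene length, position and biotype. The submitters' processing notes name HISAT2 2.0.5, featureCounts 1.5.0-p3, hg38 and mm10, while strand and the handling of multiply mapped reads are not given in the sources used here. In 100% of values, FPKM times gene length came to whole steps of equal size (tolerance 0.1 read), which were taken as reads. Groups were compared on log2(FPKM + 1), which understates changes of weak genes, for genes whose FPKM averaged at least 1, with limma 3.58.1 in R 4.3.3 (trend, robust) and Benjamini-Hochberg adjustment at 0.05. Family values are sums of FPKM. Exact permutation of 10 divisions cannot go below p = 0.1 and was not used further. Intervals and limits are at 95% and 3 reads and cover counting error only. The method was tested on simulated data that gave all genes the same small spread beyond counting error and changed only genes averaging at least 1 FPKM. That test does not cover the weaker members or libraries that stand apart.

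Members and lists were chosen with earlier results of these data known. Named were members with a mean of 1 FPKM in a group, the member with most reads of each other family, up to 4 largest rises and 4 largest falls per list past the threshold, up to 4 neighbors, and *IL13RA2*, *TGIF1*, *TGIF2*, *CTAG1B*, *CTAG2*, *PRAME*, *CTCFL*, *DNMT1*, *DNMT3A*, *DNMT3B*, *UHRF1* and *TET1*. Neighbors were genes within 1 Mb of a member. Alternatives were a pseudocount of 0.1, no minimum or a minimum of 5 FPKM, TPM, reads scaled by library total only, every biotype, the replicate number as a block, voom on the recovered reads, and each library left out. Human sequences were not used here. Results of some single genes of the lists are not reported here.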

Additional observations from a re-analysis of the deposited data

How the results depend on the processing

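The alternatives were run for the named genes outside the set, for 9 members and for the sums of MAGEA, MAGEC, PAGE, XAGE, SPANX and all members, and not for *LDOC1*, *FOXR2*, *MAGEA3* (other than leaving out libraries), *MAGEB2* or *CSAG1*. Among those run, *PAGE5* and the PAGE sum alone changed sign. The log2 ratio of the PAGE sum, whose groups overlapped, was 0.02 and became −0.0039 without ΔIL13RA2 replicate 1. With no minimum FPKM, calls numbered 2237 of 29715 tested over all genes and 8 of 28 for the members. They numbered 2 of 66 for the other cancer-testis genes, 4 of 25 for the DNA methylation genes and 2 of 38 for the repressors. For X-linked genes outside the set they numbered 59 of 979. With a minimum of 5 FPKM, 2 of 3 members were called, next to 2658 of 7199 genes. Fewer or more genes are tested under these settings. The calls of *CT83*, *IGF2BP3*, *MAGEF1*, *UHRF1*, *TDG*, *SUV39H2* and *MORC2* were lost with no minimum FPKM. On TPM 13 of 38 repressors were called, all higher. Calls over all 15678 genes tested on TPM were 2394 higher and 1368 lower, where FPKM gave 1485 higher and 1888 lower of 11761. The log2 ratio of the members' sum, −1.12, was −1.06 on TPM and −0.98 on reads scaled by library total with no division by length, and the cause was not tested. When 1 library was left out, calls ran from 2246 to 3101 over all genes, from 4 to 6 for the members, from 3 to 5 for the other cancer-testis genes, from 3 to 4 for the broadly expressed MAGE genes, from 3 to 6 for the DNA methylation genes, from 1 to 6 for the repressors, from 16 to 22 for the neighbors and from 55 to 80 for X-linked genes outside the set. The members' sum ran from −1.15 to −1.08.

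Replicate numbers were not used as pairs in the main fit. Deviations of same-numbered libraries correlated at 0.0369, −0.106 and 0.173 across genes, and those of differently numbered libraries at −0.234 to 0.198. With so few libraries these values cannot exclude pairing. With the replicate number as a block, 3187 genes and 4 DNA methylation genes were called, and *IL13RA2*, *UHRF1*, *TDG* and *MORC2* had adjusted p-values of 0.0505, 0.0573, 0.0505 and 0.0584. Depth limits the members below about 1 FPKM, where single reads decide the value.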
